A study of Mus musculus with 8 samples.

Results

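The 9 genes described here encode the long pentraxin PTX3 (Ptx3), the extracellular chaperone clusterin (Clu), and complement proteins: the C1 proteases (C1ra and C1s), the components C4 (C4b) and C3 (C3), factor B (Cfb), the C1 inhibitor (Serping1) and the decay-accelerating factor (Cd55). They were taken by symbol from the 24062 genes of the RNA-seq table. Of the 9, 8 were listed under that symbol and C1s was listed as C1s1, of which C1s is a RefSeq synonym. The cells were NIH3T3, a mouse fibroblast line of embryonic origin that grows without limit, as stable clones. The compared groups were clones 10 and 12, which carried 14-3-3ε, a protein that binds phosphorylated partners, in the p3xFLAG-CMV-10 vector, and control clones 2 and 3, which carried the control vector. All clones grew in DMEM with 10% fetal bovine serum, and cells transfected with 14-3-3ε were selected in G418 at 800 µg/mL; the protocol text names no selection for the control clones. RNA-seq and RRBS were run on each clone. RRBS (reduced representation bisulfite sequencing) covers DNA fragments cut at MspI sites, which are rich in CpG, so each assay had 4 libraries in 2 groups of 2. Clones were picked as single colonies, so differences between clones are only weakly separated from an effect of 14-3-3ε.

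Complement is a cascade of plasma proteins that marks surfaces for clearance. In the classical pathway C1q binds a target, the proteases C1r and C1s cleave C4 and C2, and the resulting enzyme cleaves C3. In the alternative pathway, factor B forms the enzyme that amplifies C3 cleavage. The C1 inhibitor blocks C1r and C1s, the membrane protein CD55 speeds the decay of the enzymes that cleave C3, and clusterin can hold back the terminal attack complex. PTX3 is a soluble pattern recognition molecule that binds C1q and takes part in hyaluronan-rich matrix. Fibroblasts can make several of these proteins, and inflammatory cytokines are known to induce many of them.

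Only the authors' comparison was given for each assay. Values of single libraries, their spread and their depth are therefore unknown. Neither table states its direction. A positive value was read as a higher level in the 14-3-3ε clones, and all directions below depend on this. Ywhae, the mouse gene of 14-3-3ε, does not check it: the authors' deposited table gave it a log2 fold change of -0.03 (standard error, SE, 0.18; adjusted p = 0.942). Of 8 fibroblast markers all were tested, with mean normalized counts from 4843 for Pdgfrb to 424650 for Fn1 in the authors' deposited table. Of these 4 rose, Pdgfra by 1.70, Pdgfrb by 1.36, Col1a1 by 0.98 and Col1a2 by 0.89 log2 units in the authors' deposited table, and none fell. Of 7 listed macrophage markers 4 were tested and none was called. Their highest mean was 110 for Cd68, and the smallest adjusted p was 0.394 in the authors' deposited table. No hepatocyte or endothelial marker had an adjusted p, and among hepatocyte markers Alb, Ttr and Tat were listed at 0 in the authors' deposited table. Of 4 epithelial markers Krt8 alone was tested, and it was not called (adjusted p = 0.295 in the authors' deposited table). The part of the fibroblast marker changes in the results below was not tested. In bulk RNA, fewer cells with a transcript and less of it per cell cannot be told apart.

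Transcripts of clusterin, C3 and both C1 proteases were higher in 14-3-3ε clones, and those of the pentraxin Ptx3 were lower. Of the 9 genes, 7 had an adjusted p-value, which the authors gave for 11482 genes. A gene was called at an adjusted p under 0.05: 4 rose, 1 fell and 2 were not called. Over all tested genes 6.15% were called higher and 4.74% lower. All 5 called genes changed at least 2-fold, as 2.88% of tested genes did upwards and 1.06% downwards. The median log2 fold change of the 7 tested genes was 1.33, against -0.003 over all tested genes, as computed from the authors' deposited table. The genes were assembled with earlier results of these data known, so these shares describe them and do not single them out. Cfb and Serping1 had no adjusted p.

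**Figure D1:**
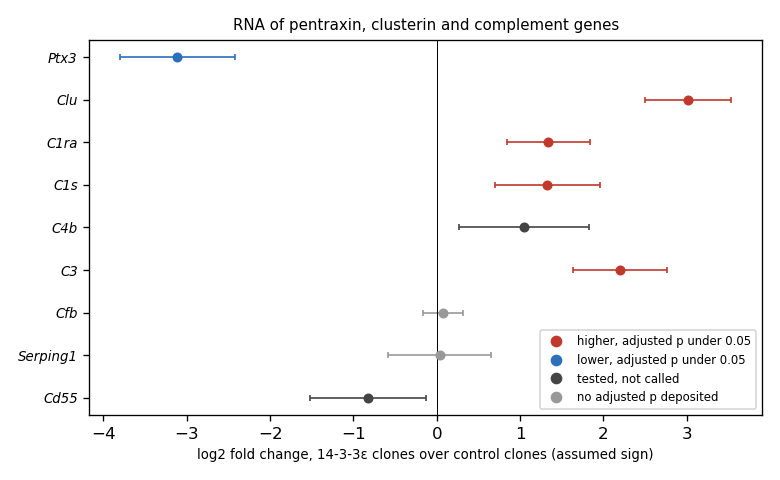
Log2 fold change of each of the 9 genes (horizontal axis; 14-3-3ε clones over control clones, assumed sign) as points, with bars of 1.96 deposited standard errors on each side; colour gives the call. Clu, C3, C1ra and C1s lie to the right of 0, Ptx3 lies at -3.11, and the intervals of C4b and Cd55 also leave out 0 although neither was called after adjustment.

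Ptx3, on chromosome 3 from 66219887 to 66225806, had a mean normalized count of 518 over the 4 libraries of the authors' deposited table. In the authors' deposited table it fell by 3.11 in log2 units (SE 0.35, adjusted p = 5.60e-16). This was an 8.65-fold lower level in 14-3-3ε clones, and the second lowest fold change of the 11482 tested genes. The 95% interval ran from -3.80 to -2.42 on the same scale. Ptx3 lies inside the annotated span of Veph1, a gene on the opposite strand which the authors' deposited table lists with a mean normalized count of 46.3 and a log2 fold change of -0.01. RNA libraries were made with a strand-specific kit, per the labels' protocols, but the sources used here do not give whether counting used the strand. No other tested pentraxin gene was called: only the neuronal pentraxin receptor gene Nptxr was tested (log2 fold change 0.53, adjusted p 0.245), and Apcs, for serum amyloid P, was listed at 0 in the authors' deposited table.

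The genes with the largest fall and the second largest rise of the set, Ptx3 and C3, both have the letters TTGCNNAA, a C/EBP-type motif, shortly before their annotated start. The 250 bases before each start are shown for that reason, with the match in capitals, from RefSeq on GRCm38.p6: Ptx3 at chr3:66219637-66219886 on the plus strand and C3 at chr17:57228137-57228386 on the minus strand.
Ptx3: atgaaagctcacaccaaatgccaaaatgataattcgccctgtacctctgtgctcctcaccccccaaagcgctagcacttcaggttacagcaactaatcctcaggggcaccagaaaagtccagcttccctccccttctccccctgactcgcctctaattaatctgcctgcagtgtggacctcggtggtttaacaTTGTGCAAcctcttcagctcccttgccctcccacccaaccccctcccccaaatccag
C3: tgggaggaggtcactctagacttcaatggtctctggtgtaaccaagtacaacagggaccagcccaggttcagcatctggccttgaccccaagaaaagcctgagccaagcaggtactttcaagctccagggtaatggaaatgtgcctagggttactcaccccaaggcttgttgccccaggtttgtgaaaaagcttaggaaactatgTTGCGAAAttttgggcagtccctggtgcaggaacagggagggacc
The match began 57 bases before the Ptx3 start, on the reverse strand, and 45 bases before the C3 start. Either strand was searched, and 9.56% of 32851 RefSeq promoters hold this motif in the same window. The AP-1 letters TGANTCA (6.75% of promoters) and the STAT letters TTCNNNGAA (7.02%) were in neither window. The C/EBP letters were not particular to this pair. They also stood 242 bases before one of the annotated starts of C1s and 135 bases before that of C1rb, and were in neither the C1ra nor the Cd55 window. These matches describe letters only, and the C/EBP match of C3 holds the single CpG of its window.

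Clu, on chromosome 14 from 65968483 to 65981548, had a mean normalized count of 1842 in the authors' deposited table. In the authors' deposited table it rose by 3.02 in log2 units (SE 0.27, adjusted p = 8.82e-27), or 8.09-fold, with a 95% interval from 2.50 to 3.54. Only 7 of the 11482 tested genes had a higher fold change. The nearest gene on the side of lower coordinates, the scavenger receptor gene Scara3, lies 14505 bp away and rose as well, by 0.94 log2 units (SE 0.23, adjusted p = 0.00130) in the authors' deposited table. On the other side Gulo, for the enzyme of vitamin C synthesis, had a mean normalized count of 0.246 in the authors' deposited table and was not tested. The genes Lrp2, Lrp8 and Trem2, for receptors that can bind clusterin, were tested and not called. In the authors' deposited table Lrp2 stood at -0.58 log2 units (adjusted p = 0.198), Lrp8 at -0.38 (adjusted p = 0.478) and Trem2 at 0.19 (adjusted p = 0.783).

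Both proteases of the C1 complex rose. C1ra, for C1r, rose 2.53-fold in the authors' deposited table, with a log2 fold change of 1.34 (SE 0.25, adjusted p = 9.20e-06). C1s rose 2.51-fold in the authors' deposited table, with a log2 fold change of 1.33 (SE 0.32, adjusted p = 0.00124). Mean normalized counts were 1118 for C1ra and 3716 for C1s in the authors' deposited table. The genes lie on chromosome 6, C1ra from 124512621 to 124523440 on the plus strand and C1s from 124530344 to 124542392 on the minus strand, with 6904 bp between them. C1q, the recognition part of the same complex, had almost no reads: C1qa and C1qc were listed at 0 and C1qb had a mean normalized count of 0.250 in the authors' deposited table.

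Mouse chromosome 6 carries a second copy of this protease pair, C1rb and C1s2. In the authors' deposited table C1s2 rose by 1.40 log2 units (SE 0.35, adjusted p = 0.00191). C1rb, with a mean normalized count of 31.7, stood at 0.91 log2 units (SE 0.40, unadjusted p = 0.0216) in the authors' deposited table and had no adjusted p. C1rl, a C1r-like gene that ends 1978 bp before C1ra begins, stood at 0.57 log2 units (adjusted p = 0.342) in the authors' deposited table. Reads that match both copies may have been split or dropped, which the sources used here do not give. The values of both pairs, C1ra and C1s as well as C1rb and C1s2, are therefore uncertain to an unknown degree. The copies resemble each other before their starts too. The 250 bases before each C1r gene are shown to let the copies be compared, from RefSeq on GRCm38.p6, plus strand, at chr6:124512371-124512620 for C1ra and chr6:124570180-124570429 for C1rb, with the longest run shared by these windows, 34 bases, in capitals.
C1ra: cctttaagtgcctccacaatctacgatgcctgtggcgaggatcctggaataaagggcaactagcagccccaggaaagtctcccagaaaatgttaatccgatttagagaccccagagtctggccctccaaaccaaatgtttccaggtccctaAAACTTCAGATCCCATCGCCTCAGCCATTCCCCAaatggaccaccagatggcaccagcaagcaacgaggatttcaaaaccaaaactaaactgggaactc
C1rb: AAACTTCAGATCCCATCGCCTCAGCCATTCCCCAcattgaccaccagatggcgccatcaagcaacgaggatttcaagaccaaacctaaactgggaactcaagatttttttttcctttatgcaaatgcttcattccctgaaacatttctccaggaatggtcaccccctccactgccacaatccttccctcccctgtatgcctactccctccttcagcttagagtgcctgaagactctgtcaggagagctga
The shared run began 99 bases before the C1ra start and 250 bases before the annotated C1rb start, at the edge of the window, so the copies may share a longer run.

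Downstream of the C1 proteases C3 rose, while C4b, for the C4 that C1s cleaves, did not pass the test. C3, the central component on chromosome 17 from 57203967 to 57228136, had a mean normalized count of 583 in the authors' deposited table. In the authors' deposited table it rose by 2.20 log2 units (SE 0.29, adjusted p = 5.58e-12), or 4.59-fold. Only 31 tested genes had a higher fold change. Its nearest neighbours were Tnfsf14, listed at 0, and Trip10, which stood at -0.17 log2 units (adjusted p = 0.740) in the authors' deposited table.

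C4b, on chromosome 17 from 34728139 to 34743902, stood at 1.05 log2 units (SE 0.40, adjusted p = 0.0664) in the authors' deposited table. Its 95% interval before adjustment ran from 0.27 to 1.82, at a mean normalized count of 158 in the authors' deposited table. The neighbouring copy C4a, annotated as a transcribed pseudogene, had a mean normalized count of 197 and stood at -0.28 log2 units (adjusted p = 0.615) in the authors' deposited table. C4a and C4b are near-identical copies, so how their reads were assigned is uncertain. The genes nearest to C4b were Tnxb, for a matrix protein, at 0.13 log2 units (adjusted p = 0.865) and Cyp21a1, without an adjusted p, in the authors' deposited table. C2, whose product C1s also cleaves, had a mean normalized count of 6.01, and Cfb one of 0.478, in the authors' deposited table. Neither had an adjusted p. Cfb lies only 88 bp from C2 and 2 bp from Nelfe, for a subunit of a transcription elongation factor, which the authors' deposited table lists with a mean normalized count of 1046 and a log2 fold change of -0.15.

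**Figure D2:**
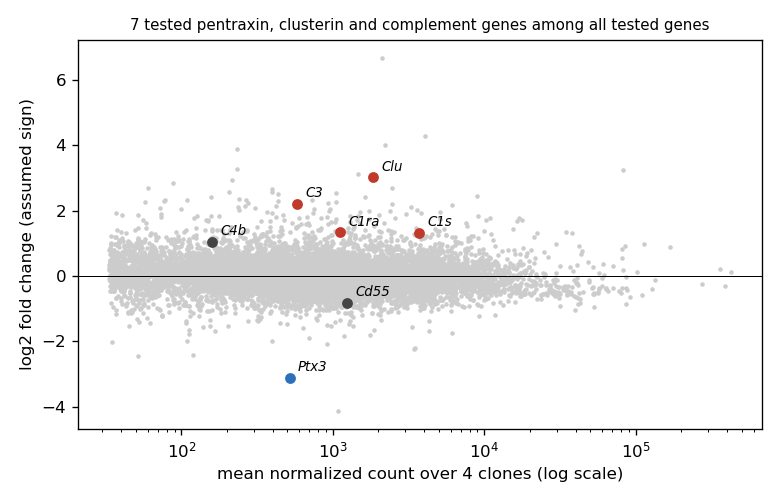
Mean normalized count over the 4 libraries (horizontal, log scale) against log2 fold change (vertical, assumed sign) for the 11482 tested genes in grey, with the 7 tested genes of the set named. Ptx3 stands near the lower edge and Clu near the upper edge at mean counts of 518 and 1842.

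Neither Serping1 nor Cd55, the genes of the set for regulators of C1 and of the C3-cleaving enzymes, was called. Serping1, whose product blocks C1r and C1s, had a mean normalized count of 4.99 and stood at 0.03 log2 units (SE 0.32) in the authors' deposited table, with no adjusted p. Fold changes at such counts were small throughout: the 4218 genes with a mean from above 0 up to 5 all lay within 0.48 log2 units of 0 in the authors' deposited table. Whether the deposited fold changes were drawn towards 0 at low counts is unknown here, so these values do not show unchanged levels. Next to Serping1, Ube2l6, for a ubiquitin-conjugating enzyme, stood at 0.80 log2 units (adjusted p = 0.0672) and Mir130a was listed at 0 in the authors' deposited table. Cd55, which guards cells against the C3-cleaving enzymes, spans positions 130429798 to 130465009 of chromosome 1, with a mean normalized count of 1246 in the authors' deposited table. Its nearest listed neighbour within 100000 bp, Zp3r, was listed at 0 in the authors' deposited table. Cd55 itself stood at -0.82 log2 units (SE 0.35, unadjusted p = 0.0205, adjusted p = 0.121) in the authors' deposited table. The 95% interval ran from -1.52 to -0.13, so a lower level of up to 1.52 on the log2 scale and one close to 0 both lie within it. The duplicate gene listed as Daf2, a second decay-accelerating factor gene, had no adjusted p.

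Methylation around the Cd55 start was higher in 14-3-3ε clones. Within 1000 bp of the annotated start at position 130462744 the RRBS table listed 67 cytosines, over 569 bp. A cytosine was called at the authors' q under 0.05: 16 of these were higher and 1 was lower. Near all annotated starts 1.49% of 788539 listed cytosines were called higher and 1.98% lower, against 23.9% higher near Cd55. The mean difference over the 67 cytosines was 9.59 percentage points, and 52 were above 0, as computed from the authors' deposited table. The 50 cytosines that were not called averaged 5.61 points, 36 of them above 0, in the authors' deposited table. Among 13165 annotated starts with at least 20 listed cytosines nearby, the Cd55 start ranked 23 by mean difference and 16 by the share called higher. The mean differences of these starts had a median of -0.08 points and a 95th percentile of 2.05 points. RNA of Cd55 in the same clones is the -0.82 given above, which was not called.

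The higher cytosines near Cd55 ran from 118 bases before the start to 341 bases after it, with 3 before and 13 after. They differed by 16.2 to 36.1 points, with a median of 24.0 points, in the authors' deposited table. The largest called difference was 36.1 points at position 130462749, 5 bases before the start (q = 0.000371), followed by 29.0 points at 130462552 (q = 0.000233) in the authors' deposited table. The only lower call was -28.1 points at 130462460 (q = 0.00162 in the authors' deposited table), 284 bases after the start. The strands of a CpG usually share their methylation and are not independent. Counted as CpGs, 12 of 34 had a higher call and 4 of these were called on both strands. As computed from the authors' deposited table, the plus strand averaged 10.1 points and the minus strand 9.03. Cd55 is annotated to reach 2265 bp beyond this start, and no cytosine was listed elsewhere in the gene or within 10000 bp of it. The q-values may rest on reads pooled within groups, so they need not hold the spread between clones, and the sources used here give no coverage per cytosine.

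The 250 bases before this start hold the called cytosines on its upstream side and are shown with each CpG in capitals, from RefSeq on GRCm38.p6, minus strand, at chr1:130462745-130462994.
Cd55: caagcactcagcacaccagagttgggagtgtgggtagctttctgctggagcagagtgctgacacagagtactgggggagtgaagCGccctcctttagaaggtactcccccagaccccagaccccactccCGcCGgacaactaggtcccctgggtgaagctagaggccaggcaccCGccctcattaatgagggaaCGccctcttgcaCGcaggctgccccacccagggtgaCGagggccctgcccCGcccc
These bases hold 8 CpGs, of which 5 were listed by RRBS and 3 had a called cytosine, all higher. The called CpGs began 118, 56 and 6 bases before the start, and the single MspI site of the window, CCGG, began 119 bases before it. That site stands in 47.1% of promoters in the same window, and it was in none of the windows of Ptx3, C3, C1ra and C1s.

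**Figure D3:**
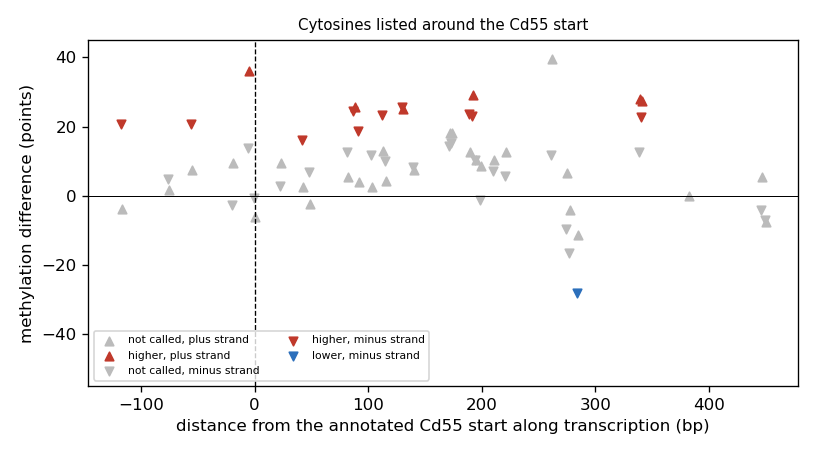
Difference in methylation in percentage points (vertical; 14-3-3ε clones minus control clones, assumed sign) for the 67 cytosines listed near Cd55, by distance along transcription from the annotated start (dashed line), with triangles pointing up for the plus strand and down for the minus strand. The 16 red points, called higher, spread from 118 bases before the start to 341 after it, and the blue point is the only lower call, at 284 bases after it.

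Outside Cd55, 85 cytosines were listed near starts or gene ends, all of them at gene ends of Clu, C4b, Cfb and Serping1. Of these 5 (5.88%) were called higher and 5 (5.88%) lower. The shares near all annotated starts were 1.49% and 1.98%, but these gene ends need not be starts, so the shares are not like for like. Of the 10 calls at these ends, 6 were at Clu. No cytosine was listed within 1000 bp of the annotated starts of Ptx3, C3, C1ra and C1s, so methylation at the starts of the 5 called genes was measured, if at all, only for Clu. Of all annotated starts, 44.4% had no listed cytosine in that window. For Clu, C4b, Cfb and Serping1 the tables used here give no strand, so both gene ends were taken. Clu had 28 cytosines near its lower-coordinate end, of which none was higher and 2 were lower, at -16.3 and -26.9 points on the strands of 1 CpG (positions 65968829 and 65968830) in the authors' deposited table. Near its other end 4 of 10 were higher and none lower, by 16.1 to 20.6 points at 2 CpGs between positions 65981136 and 65981165 in the authors' deposited table. The ends of Clu thus carried calls of opposite sign.

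Within the gene and 10000 bp on each side, 3 of 135 cytosines at C3 were higher and 6 lower, and 1 of 79 at C4b was higher and 5 lower. Of all listed cytosines, 1.92% were called higher and 2.83% lower. Inside the gene span alone, 2 of 30 cytosines at C3 were lower and none higher. At C4b 1 of 43 was higher and 1 lower inside the span. Some lower calls of the flanks lay inside neighbouring genes, in Tnfsf14 and Trip10 at C3 and in Tnxb at C4b. The largest called differences were -28.7 points at 57224963 inside C3 (q = 0.00459) and -35.3 points at 34744625, 723 bp outside C4b (q = 0.00166), in the authors' deposited table. At Cfb 2 of 129 were higher and 1 lower, at Serping1 1 of 24 was lower, at Ptx3 1 of 15 was higher, at C1s 2 of 12 were higher and at C1ra none of 10 was called. Only 4 of the 129 at Cfb lay in the gene span, among them the lower call. The higher calls at Cfb lay inside Nelfe and C2. The Ptx3 call was 15.8 points at position 66225137, 5250 bases after the start (q = 0.00351 in the authors' deposited table). Mean differences over these regions lay between -2.10 points at Ptx3 and Serping1 and 5.69 points at C1s, next to 9.59 points at Cd55, as computed from the authors' deposited table.

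**Figure D4:**
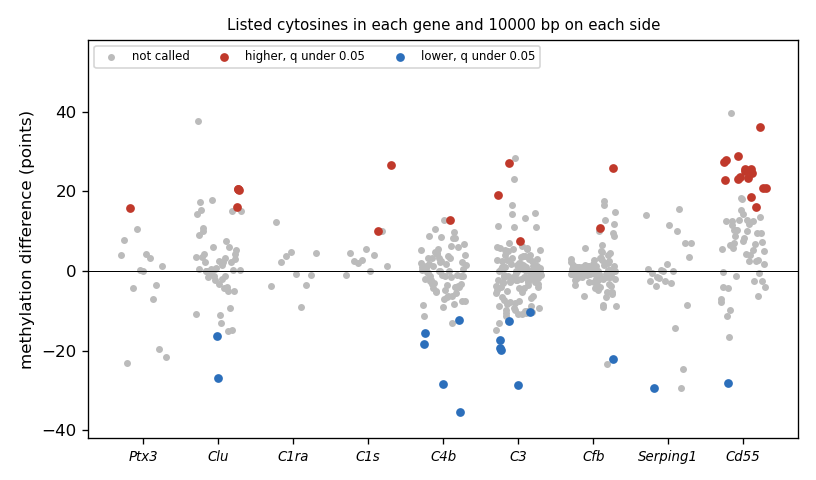
Difference in methylation in percentage points (vertical; assumed sign) of each listed cytosine in the gene and 10000 bp on each side, in order of position within each gene's column, with calls at q under 0.05 in red (higher) and blue (lower). Cd55 holds 16 of the 29 higher calls. The calls in the windows of C3 and C4b, which reach into neighbouring genes, are mostly lower.

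Beyond the set, most complement genes had no adjusted p. Of 50 other complement genes, 17 were listed at 0 and 13 were tested, of which 2 rose and 2 fell. Of all tested genes 10.9% were called in either direction. The median log2 fold change of the 13 was 0.14, as computed from the authors' deposited table. Cd59a, for a membrane protein that blocks the terminal attack complex, rose by 1.06 log2 units (SE 0.34, adjusted p = 0.0242) in the authors' deposited table, and the other rise was that of C1s2. Masp2, a protease of the lectin pathway, fell by 0.89 log2 units (SE 0.31, adjusted p = 0.0420) in the authors' deposited table. C1qbp, for a mostly mitochondrial protein that can bind C1q, fell by 0.85 log2 units (SE 0.19, adjusted p = 0.000470) in the authors' deposited table. Masp2 overlaps Tardbp and C1qbp overlaps Rpain in the annotation, so the split of their reads is uncertain. None of the 7 terminal component genes, from C6 to C9 and Hc for C5, had an adjusted p.

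Membrane and soluble regulators thus gave 1 rise among 3 tested, and receptors 1 fall among 3 tested. The membrane regulators Cd46 and Cr1l had log2 fold changes of 0.11 and 0.14, with adjusted p-values of 0.908 and 0.838 in the authors' deposited table. Near the start of Cd59a, 24 cytosines were listed, of which none was higher and 2 were lower, with a mean difference of -5.17 points as computed from the authors' deposited table. Near that of C1qbp 1 of 48 was lower and none higher. None of 4 was called near that of C1s2, and none was listed near that of Masp2. Of the cytosines listed near all annotated starts, 1.49% were called higher and 1.98% lower.

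**Figure D5:**
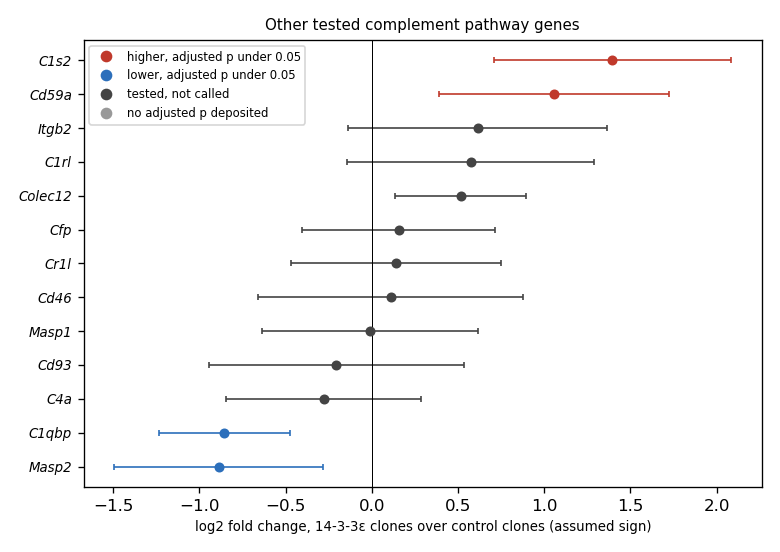
Log2 fold change (horizontal; 14-3-3ε clones over control clones, assumed sign) of the 13 other tested complement genes, with bars of 1.96 deposited standard errors on each side and colour for the call. C1s2 and Cd59a stand at the upper end and C1qbp and Masp2 at the lower end, while the 9 genes between them were not called.

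Genes of inflammatory signalling were called higher or not called. Any link between them and the changes of the set, in which Ptx3 fell, was not tested. Of 24 tested regulators of inflammation 7 rose and none fell, next to 6.15% and 4.74% of all tested genes, with a median log2 fold change of 0.38 as computed from the authors' deposited table. Irf1, an interferon-responsive transcription factor, rose by 1.26 log2 units (SE 0.28) and the cytokine-activated factor Stat3 by 0.88 (SE 0.18) in the authors' deposited table. The oncostatin M receptor gene Osmr rose by 0.79, the interleukin 6 receptor gene Il6ra by 0.71 and the TNF receptor gene Tnfrsf1a by 0.68 log2 units in the authors' deposited table. In the authors' deposited table Nfkbia, for an NF-kB inhibitor, and the related gene Nfkbiz rose by 0.81 and 0.77 log2 units, with adjusted p-values of 0.0193 and 0.0460. Several cytokine genes were scarce: Il1a and Il1b were listed at 0, Tnf had a mean normalized count of 0.999 and Il6 one of 26.4 in the authors' deposited table. The cytokine gene Lif was not scarce, with a mean normalized count of 465 in the authors' deposited table. It was not called, at -0.32 log2 units (adjusted p = 0.553) in the authors' deposited table. Neither Cebpb nor Cebpd, the tested C/EBP genes of the list, was called in the authors' deposited table, with log2 fold changes of -0.19 and 0.55 and adjusted p-values of 0.637 and 0.216. Cebpa was listed at 0 in the authors' deposited table. The lowest value of the list was that of the Toll-like receptor gene Tlr2, at -0.74 log2 units (adjusted p = 0.230) in the authors' deposited table, and it was not called.

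Of 4 tested genes for partners of PTX3 in matrix, 1 rose and none fell, next to 6.15% and 4.74% of all tested genes. Tnfaip6, for a hyaluronan-binding protein that PTX3 binds, rose by 0.89 log2 units (SE 0.27, adjusted p = 0.0168) in the authors' deposited table. The other tested partner genes, Itih2, Has2 and Fgf2, were not called, with log2 fold changes from 0.15 for Itih2 to 0.35 for Fgf2 in the authors' deposited table. Among extracellular chaperone and matrix genes listed with clusterin, Sparc rose by 0.97 and Hspg2, for perlecan, by 0.66, while the collagen chaperone gene Serpinh1 was not called, at 0.28 log2 units in the authors' deposited table. Acute phase genes were mostly scarce, with 2 of 12 tested. Cp, for ceruloplasmin, rose by 1.64 log2 units (SE 0.29, adjusted p = 9.46e-07) in the authors' deposited table, and Saa3 was not called (adjusted p 0.863). Cp overlaps Hps3 in the annotation, so the split of its reads is uncertain.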

How the data were processed

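RNA and DNA methylation were measured in 2 clones per group. Trim Galore, TopHat2 and HTSeq (RNA), Bismark and Bowtie2 (RRBS), methylKit, DESeq2 and build mm10 are named in the submitters' processing notes, without versions; the assay given here for each tool is its usual one. What is called the mean normalized count was deposited by the authors as a signal whose header DESeq2 uses for such a mean. The log2 fold change and its standard error, the score that is their ratio, and the p-value, adjusted p-value and q-value were deposited by the authors, as was a signed difference in methylation in percentage points, another unit named per the file headers. The authors' adjusted p covers genes with a mean normalized count of 33.1 or more. The planned tests were the deposited ones, since no counts or coverage were given.

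From these tables, 95% intervals were taken as 1.96 standard errors on each side, 253 duplicate lines of the RRBS table were removed and 2361680 cytosines kept. Coordinates and sequences come from RefSeq on GRCm38.p6, the assembly of mm10, where 5 of 9 genes had a promoter entry and the other 4 were taken at both gene ends. Python 3.11.15, pandas 2.3.3 and scipy 1.17.1 were used, and calling was tested on simulated data. All 9 genes are named, with every called gene of the other lists (at most 10 a list) and the nearest gene on each side within 100000 bp. The plan also named the highest and lowest tested gene of each list, which is done for only some lists. At most 3 called cytosines a gene are named by size. Further cytosines of Clu were named after their values were seen, and the minimum of 20 cytosines for ranking starts was chosen then too. The genes and lists were chosen with earlier results of these data known. The result of one listed gene is not reported here. Likeness of pattern across samples was not ranked, since no value per library was given. Alternatives changed the thresholds, the adjustment, the centring and the windows.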

Additional observations from a re-analysis of the deposited data

How the results depend on the processing

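The count of called genes in the set was 5 at an adjusted p of 0.01, at 2-fold, with Benjamini-Hochberg adjustment over all 17478 genes with a p-value and over genes with a mean normalized count of at least 100. At an adjusted p of 0.1 it was 6, with C4b added. The median log2 fold change of all tested genes was -0.003, and the smallest change among the 7 tested genes was -0.82, for Cd55. Subtracting that median could therefore change no direction among the 7. Called genes among the other complement genes numbered 4, but 2 at an adjusted p of 0.01 and 2 when a 2-fold change was required.

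Called cytosines near starts or gene ends numbered 27, 21 higher and 6 lower. With a difference of at least 25 points they were 12, of which 8 were higher. Without Cd55, an alternative chosen after seeing the data, 10 were called, 5 higher and 5 lower. At q under 0.01 the lower count was 3. In genes and flanks 45 were called, 29 higher and 16 lower. With at least 25 points there were 16, 10 higher and 6 lower. Without Cd55 there were 28, of which 13 were higher, and without flanks the lower count was 8. Where a filter or the removal of Cd55 lowers a count, fewer cytosines enter by construction. Of 46 comparisons with an alternative, 33 stayed within 1.5 times or kept their direction. These comparisons are not independent, since higher, lower and summed counts share the same cytosines. They also include the subtractions of the median, which could reverse no direction.

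No paired analysis was possible because the tables hold no value per library and the compared groups share no clone number. Leaving out each clone could not be run for the same reason. Depth and coverage are unknown, so no limit of detection is given.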
